A study of Saccharomyces cerevisiae with 10 samples.

Results

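Yeast take up inorganic phosphate, store it as polyphosphate and sense it through inositol pyrophosphates. The transcripts described here are the 31 genes of that system, out of 6612 transcripts in the tables, of which 5987 had enough reads to be tested. They comprise 2 high-affinity transporters, 3 low-affinity transporters, 7 regulators, 6 phosphatases, 5 polyphosphate genes, 4 genes of inositol pyrophosphate signalling (the export-related *SYG1* among them) and 4 genes that handle glycerophosphodiesters or belong to the PHM (phosphate metabolism) group. All 31 were tested. The genes were chosen by name from the pathway, but with the comparison of the strains already known: *PHO89* has the lowest log2 fold change of all 5987 tested transcripts (rank 1 from the bottom). Differences between the strains are therefore given for these genes as a description, and nothing is concluded from them. The genes' deviations within each strain, which that choice did not use, carry the only test of these genes, and the same relation is given for all tested transcripts beside it.

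Polyadenylated RNA was sequenced from 5 independent cultures of BY *UBR1* -469A>T and 5 of BY, a haploid *MATa* laboratory strain of *Saccharomyces cerevisiae* close to the reference strain S288C. *UBR1* encodes the ubiquitin ligase of the Arg/N-end rule, and BY *UBR1* -469A>T carries 1 exchanged base in its promoter, taken from the vineyard strain RM and introduced by allele replacement with Cas9. The cultures of both strains were grown side by side in synthetic complete medium, in which inorganic phosphate is supplied, for about 7 hours to an optical density near 0.40. No phosphate starvation was applied to any group.

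In yeast the PHO pathway turns on the transcription factor Pho4, with its partner Pho2, when phosphate runs short. With ample phosphate the cyclin-dependent kinase Pho85, bound to its cyclin Pho80, phosphorylates Pho4 and keeps it out of the nucleus, whereas in starvation the inhibitor Pho81 blocks the kinase. Nuclear Pho4 then activates transporters, secreted phosphatases and the VTC polyphosphate polymerase. Many proteins of the system carry an SPX domain, which binds inositol pyrophosphates, the molecules made by the kinases Kcs1 and Vip1.

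Pho4 binds DNA at the core CACGTG, and less tightly at CACGTT. Other basic helix-loop-helix factors, such as Cbf1, read the same palindrome. On both strands of the 500 bases upstream of the start codon in the R64 reference genome, CACGTG occurred for 19 of the 31 genes, against 6.23% of 6000 protein-coding genes, and CACGTT for 15, against 16% of these genes. At least 1 of the cores was present for 23 genes, against 21% of all. At least 2 were present for 13 genes, against 2.72% of all. Cores on opposite strands of the palindrome were counted once, and no CACGTG was also counted as CACGTT. Many of the 31 are textbook targets of Pho4, so that these shares describe the genes chosen. The promoter stretches of *PHO89*, *PHO84* and *SPL2* are shown because these transcripts stand at the lower end of the comparison of the strains or anchor the comparison within strains. Each is written on the strand of its gene, and capitals mark the Pho4 cores, with AACGTG being CACGTT read on the other strand. *PHO89* is shown at chrII:798815-799010, from 488 to 293 bases upstream of its start codon, *PHO84* at chrXIII:26032-26261, from 461 to 232 bases upstream, and *SPL2* at chrVIII:375217-375486, from 386 to 117 bases upstream. All 3 lie on the minus strand.
PHO89: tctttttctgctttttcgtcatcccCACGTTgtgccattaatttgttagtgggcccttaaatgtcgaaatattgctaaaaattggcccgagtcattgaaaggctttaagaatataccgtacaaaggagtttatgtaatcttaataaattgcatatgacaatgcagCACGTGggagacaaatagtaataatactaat
PHO84: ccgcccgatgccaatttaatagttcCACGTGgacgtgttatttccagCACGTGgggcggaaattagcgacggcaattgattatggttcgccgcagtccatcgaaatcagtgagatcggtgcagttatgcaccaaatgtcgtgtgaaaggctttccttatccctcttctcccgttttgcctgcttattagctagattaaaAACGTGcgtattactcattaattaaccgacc
SPL2: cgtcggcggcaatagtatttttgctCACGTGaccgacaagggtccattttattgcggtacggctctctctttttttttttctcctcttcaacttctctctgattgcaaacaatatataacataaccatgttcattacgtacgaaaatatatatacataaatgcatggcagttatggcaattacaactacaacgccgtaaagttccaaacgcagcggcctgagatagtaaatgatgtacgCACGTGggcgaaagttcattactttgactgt

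*PHO89* thus had 1 core of each kind, 318 and 458 bases from the start codon. *PHO84* had CACGTG at 431 and 409 bases and CACGTT at 257 bases. *SPL2* had CACGTG at 4 places, 356, 142, 85 and 26 bases upstream, and the stretch above covers the first 2 of them. No core of either kind was found upstream of *PHO2*, *PHO3*, *PHO4*, *PHO90*, *PPN1*, *KCS1*, *GIT1* or *PHM7*. These are matches of letters in a fixed window, and binding was not measured.

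**Figure D1:**
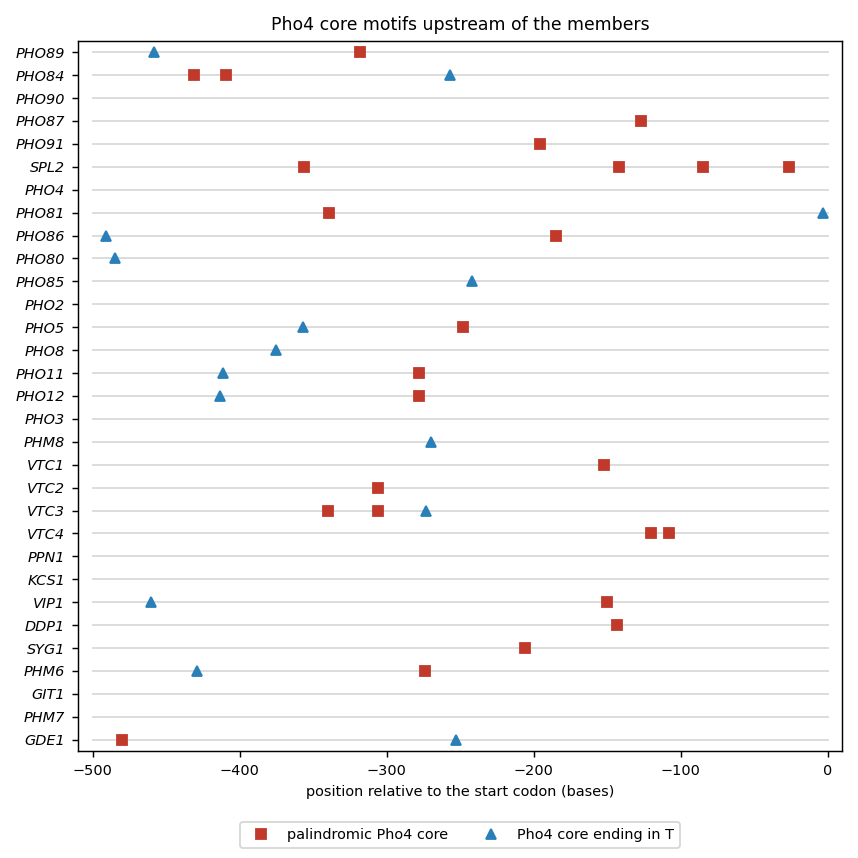
Positions of the Pho4 cores in the 500 bases upstream of each start codon, in bases, for the 31 genes grouped by role. Squares are CACGTG and triangles CACGTT on either strand; *SPL2* has 4 squares, and 8 genes have no mark.

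As a check of the labels, *UBR1* itself had 173 ± 8.70 normalized CPM for BY *UBR1* -469A>T against 149 ± 10.2 for BY (SD, n = 5 each), a log2 fold change of 0.21 (standard error 0.047). Normalized CPM are counts scaled to the TMM-adjusted library size, and a transcript passed the threshold used here, as *UBR1* did, at an adjusted p under 0.1 in edgeR. Libraries held 71103539 to 97644549 estimated counts in BY *UBR1* -469A>T and 72105131 to 94432416 in BY. The a-cell genes *MFA1*, *MFA2*, *STE2*, *BAR1* and *STE6* were at 194 to 1035 normalized CPM in all 10 libraries, and the alpha-cell genes *MFALPHA1*, *MFALPHA2* and *STE3* at 0.0865 to 6.11. The labels name BY4741, whose standard stocks carry deletions in *HIS3*, *LEU2*, *MET17* and *URA3*. The study's strain table gives BY deletions of *HIS3* and *HO* only. Each of these genes had transcripts in all 10 libraries, with at least 4876 estimated counts for the first 4 and at least 2398 for *HO*. The counts of *LEU2*, *MET17* and *URA3* go against the standard BY4741 genotype, but not against the study's table. For *HIS3* and *HO* the genotype stays undecided, since a count per gene cannot tell a partly deleted gene from an intact one. The plasmid that the study used for allele replacement also carried *HIS3*, and whether any of it remained was not tested. Much of the spread among replicates, 59.8% of the variance within strains, lay on 1 main axis, which is the leading principal component of the libraries centred on their strain.

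The 31 transcripts spanned a wide range of levels. On a per-length scale (TPM, where a library's transcripts sum to a fixed total), *VTC1* was the highest, at 558 to 608 TPM in BY *UBR1* -469A>T and 541 to 671 TPM in BY, and the ranges of its libraries lay above those of every other gene described here. *VTC1* encodes the small membrane subunit of the polyphosphate polymerase. *PHO84* came next by its mean in BY, at 98.5 to 127 TPM in BY *UBR1* -469A>T and 94.6 to 145 TPM in BY. At the other end, *GIT1*, the permease for glycerophosphoinositol, had 1.59 to 1.87 TPM in BY *UBR1* -469A>T and 1.55 to 2.68 TPM in BY, and *PHM7*, a membrane protein of unknown function, had 1.65 to 2.87 TPM in BY *UBR1* -469A>T and 1.09 to 2.93 TPM in BY. These 2 overlapped each other in both strains and lay below the other 29 genes in BY, where *PHO89* reached the middle of the order at rank 16. In BY, *VTC4* (60.8 to 71.8 TPM) and *PPN1* (51.3 to 72.9 TPM) overlapped, and the range of *PHO80* (19.4 to 22.6 TPM) lay within that of *PHO12* (17.5 to 26.8 TPM).

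**Figure D2:**
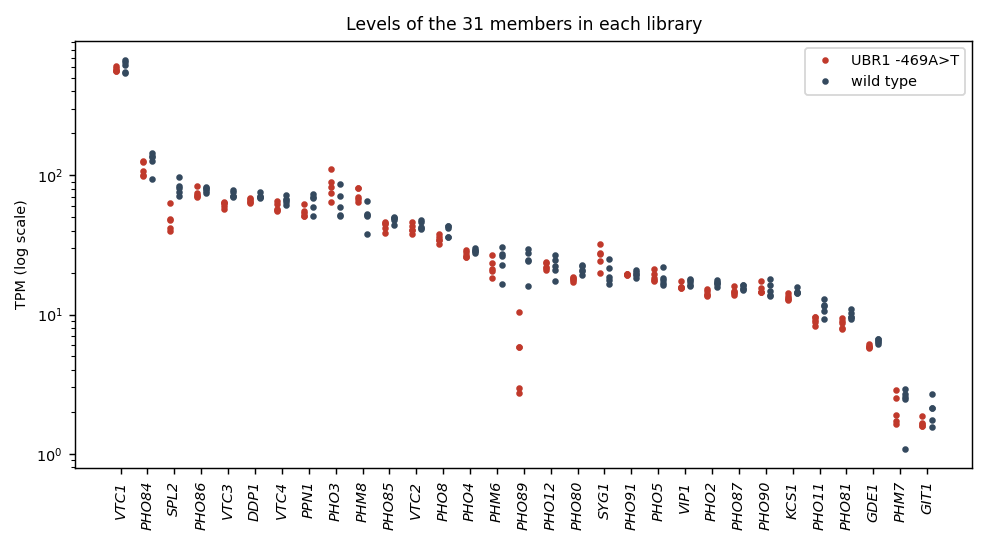
Levels of the 31 genes in TPM on a log scale, 1 point per library, with the 5 BY *UBR1* -469A>T libraries left of the 5 BY libraries for each gene. Genes run from the highest to the lowest mean in BY, and *PHO89* is the gene whose 5 BY *UBR1* -469A>T libraries sit farthest below those of BY.

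In the edgeR fit with 2 surrogate variables, 13 of the 31 genes had an adjusted p under 0.1, 4 higher and 9 lower in BY *UBR1* -469A>T. The background is high, since 21.2% of all 5987 tested transcripts passed, 11.9% higher and 9.32% lower. The genes were chosen with this comparison known, and nothing is read from their count. The 9 lower genes were *PHO89*, *SPL2*, *PHO84*, *PHO11*, *VTC3*, *PHO81*, *PHO80*, *VTC4* and *PHO2*, and the 4 higher ones were *PHM8*, *SYG1*, *PHO3* and *PHO91*. Log2 fold changes were negative for 24 genes. Their median was -0.05, against 0.0012 over all tested transcripts, and 28 of the 31 were under 0.3 in size. In normalized CPM, all 5 libraries of one strain lay above all 5 of the other for 4 genes, *PHO89*, *SPL2*, *PHO2* and *PHM8*, and this held for 2.92% of all tested transcripts. The other 9 genes past the threshold overlapped between the strains. CACGTG was present upstream of 7 of the 9 lower genes, 2 of the 4 higher genes and 10 of the 18 that did not pass. The count of genes past the threshold depended on the surrogate variables. Without any, and without the replicate number in the fit, none of the 31 and 0 of all tested transcripts passed in edgeR. Of the 31, 9 had an unadjusted p under 0.05 there. Leaving out a library gave 5 without BY replicate 5 (4.11% of all tested transcripts), 6 without BY *UBR1* -469A>T replicate 2 (5.49% of all) and 8 without BY *UBR1* -469A>T replicate 3 (11.7% of all).

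**Figure D3:**
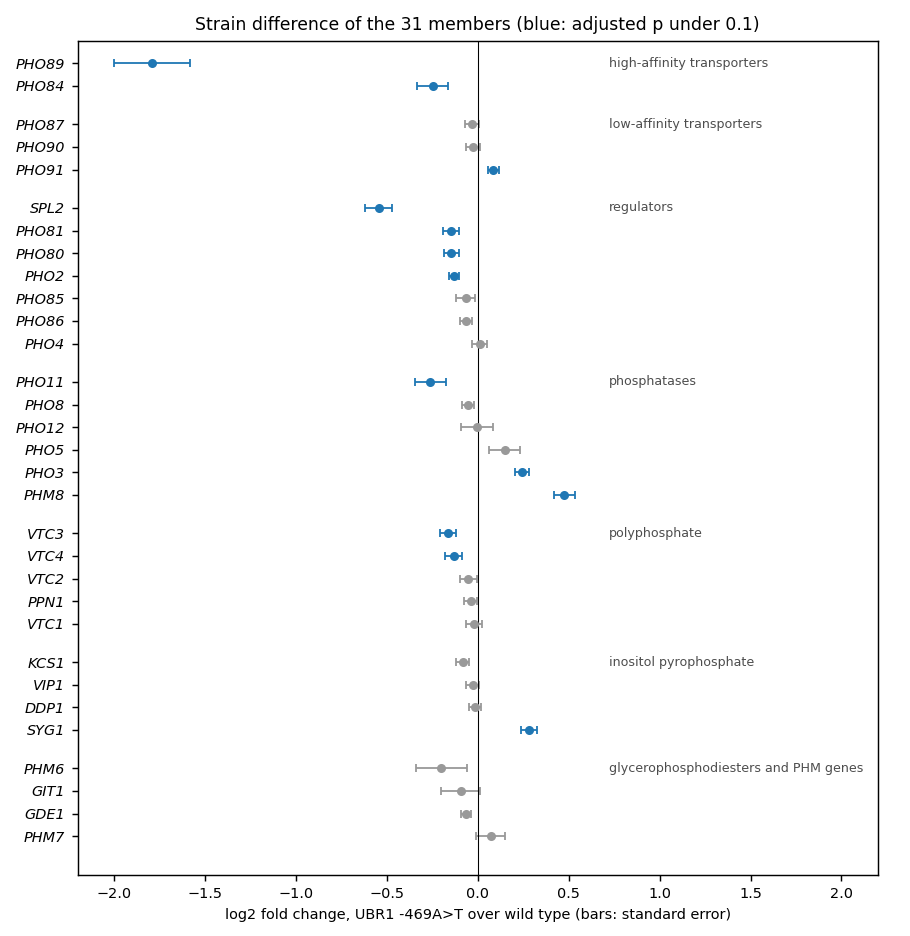
Log2 fold change of BY *UBR1* -469A>T over BY for the 31 genes, grouped by role, with bars of 1 standard error. Blue marks an adjusted p under 0.1; *PHO89* at -1.79 stands far from the other 30, which lie between -0.54 and 0.48.

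The high-affinity transporters were both lower, as were 9.32% of all tested transcripts. Pho89 is a sodium-coupled phosphate transporter that works best at alkaline pH, and Pho84 is the proton-coupled transporter that carries most uptake in acidic medium. Values of the 5 libraries are given in the order of their replicate numbers. *PHO89* (YBR296C) had 40.1, 22.7, 11.8, 23.1 and 10.4 normalized CPM in the BY *UBR1* -469A>T libraries, against 89.8, 88.6, 101, 111 and 59.3 in the BY libraries. All 5 BY *UBR1* -469A>T libraries lay below all 5 BY libraries, and within BY *UBR1* -469A>T the highest library, replicate 1, stood well apart from the lowest, replicate 5. The means were 21.6 ± 11.9 normalized CPM for BY *UBR1* -469A>T against 90.0 ± 19.5 for BY (SD, n = 5 each), which is 4.16-fold lower in BY *UBR1* -469A>T, and the fitted log2 fold change was -1.79 (standard error 0.21). The least-covered library still held 929 estimated counts of this transcript. In RNA from whole cultures, fewer cells expressing a transcript and less RNA per cell cannot be told apart.

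*PHO84* (YML123C) had 389.8, 406, 437, 509 and 498 normalized CPM in the BY *UBR1* -469A>T libraries, against 481, 350.0, 507, 535 and 554 in the BY libraries. The strains overlapped broadly, and BY replicate 2 was the lowest of all 10 libraries. Means were 448 ± 53.4 normalized CPM for BY *UBR1* -469A>T against 485 ± 80.7 for BY (SD, n = 5 each), with a fitted log2 fold change of -0.25 (standard error 0.086), which was -0.12 without surrogate variables. *PHO84* passed the threshold in 9 of the 21 alternative fits, *PHO89* and *SPL2* in 20. Of the other lower genes, *PHO2* passed in 16, *VTC3* in 15, *PHO80* in 14, *PHO81* and *PHO11* in 12 and *VTC4* in 9, and of the higher ones *PHO91* in 5.

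**Figure D4:**
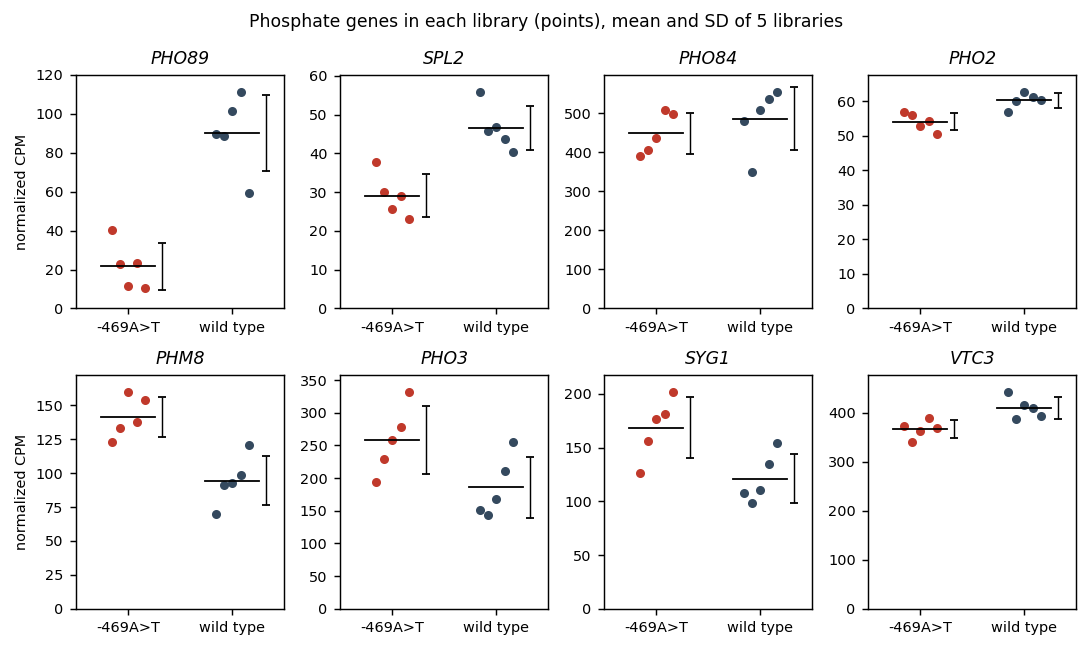
Normalized CPM of 8 genes in each library (points), with the mean (line) and SD (bar) of the 5 BY *UBR1* -469A>T libraries on the left and the 5 BY libraries on the right of each panel; every axis starts at 0. The points of the strains do not overlap for *PHO89*, *SPL2*, *PHO2* and *PHM8*.

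*PHO89* lies at chrII:796798-798522 of R64, and its neighbours on that arm were also examined. *MAL33*, the gene upstream of it in divergent orientation, which encodes an activator of maltose genes, had 20.1 ± 8.48 normalized CPM for BY *UBR1* -469A>T against 42.6 ± 8.04 for BY (SD, n = 5 each), with a log2 fold change of -0.80 (standard error 0.094). The maltose permease gene *MAL31* and the maltase gene *MAL32* had log2 fold changes of -0.25 (standard error 0.063) and -0.44 (standard error 0.093). These 3 passed edgeR's threshold as lower. On the other side, *PCA1* (a metal-exporting ATPase) and *VBA2* (a vacuolar amino acid permease) did not pass, at 0.07 and -0.08, while the sulfate permease gene *SUL1* passed at -0.63 from levels of 0.790 normalized CPM in BY *UBR1* -469A>T and 1.25 in BY. The strains overlapped for each of these 6 neighbours. The *MAL* genes have close relatives near other telomeres, between which reads could be split.

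Of the low-affinity transporters, *PHO91* (YNR013C), whose product exports phosphate from the vacuole, was the only one past the threshold. It had 124, 124, 127, 124 and 122 normalized CPM in the BY *UBR1* -469A>T libraries, against 123, 124, 116, 119.9 and 111 in the BY libraries, and its log2 fold change was 0.09 (standard error 0.031). The strains overlapped, and all 10 libraries lay within a narrow band. In TPM the means ran the other way, at 19.4 for BY *UBR1* -469A>T and 19.7 for BY. The direction of *PHO91* therefore depended on the scale used. *PHO87* and *PHO90*, the plasma membrane carriers, had log2 fold changes of -0.03 (standard error 0.04) and -0.03 (standard error 0.039) and did not pass.

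Among the regulators, 4 of 7 were lower and the other 3 did not pass, where 9.32% of all tested transcripts were lower. Spl2 is a small protein that, in yeast, restrains uptake through Pho87 when Pho4 is active. *SPL2* (YHR136C) had 37.8, 29.9, 25.6, 29.0 and 23.0 normalized CPM in the BY *UBR1* -469A>T libraries, against 55.9, 45.7, 46.9, 43.8 and 40.4 in the BY libraries. No library of BY *UBR1* -469A>T reached the lowest BY library. Means were 29.1 ± 5.58 normalized CPM for BY *UBR1* -469A>T against 46.6 ± 5.78 for BY (SD, n = 5 each), which is 1.60-fold lower in BY *UBR1* -469A>T, with a log2 fold change of -0.54 (standard error 0.075). *SPL2* was the third highest of the 31 genes in BY on the per-length scale, and *PHO89* and *SPL2* were the lowest and second lowest by fold change.

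Pho4 and Pho2 act as the DNA-binding pair, Pho80 and Pho85 as the kinase that holds Pho4 back, and Pho81 as the kinase's inhibitor. *PHO4* (YFR034C) had 52.0, 54.4, 49.1, 48.8 and 48.6 normalized CPM in the BY *UBR1* -469A>T libraries, against 49.1, 50.6, 49.7, 54.6 and 50.7 in the BY libraries. The log2 fold change was 0.01 (standard error 0.039) and did not pass, with overlapping strains. *PHO2* (YDL106C) had 56.8, 56.0, 52.9, 54.1 and 50.5 normalized CPM in the BY *UBR1* -469A>T libraries, against 57.0, 60.0, 62.7, 61.3 and 60.3 in the BY libraries. Its libraries did not overlap between the strains, although the gap was small and the log2 fold change only -0.13 (standard error 0.029).

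*PHO81* (YGR233C) had 73.4, 67.9, 69.9, 79.2 and 79.3 normalized CPM in the BY *UBR1* -469A>T libraries, against 88.8, 76.1, 81.7, 77.9 and 78.4 in the BY libraries. *PHO80* (YOL001W) had 30.5, 30.9, 31.8, 30.0 and 31.2 normalized CPM in the BY *UBR1* -469A>T libraries, against 31.6, 35.7, 36.1, 34.1 and 33.9 in the BY libraries. *PHO85* (YPL031C) had 79.9, 76.8, 83.7, 71.4 and 82.1 normalized CPM in the BY *UBR1* -469A>T libraries, against 81.8, 82.6, 84.1, 76.6 and 85.2 in the BY libraries. The inhibitor and the cyclin both passed the threshold as lower and by a like amount, at -0.15 (standard error 0.045) for *PHO81* and -0.15 (standard error 0.041) for *PHO80*, with overlapping strains in each. The kinase *PHO85* at -0.07 (standard error 0.051) did not pass. *PHO86*, which encodes the endoplasmic reticulum protein that Pho84 needs to leave that compartment, did not pass either, at -0.06 (standard error 0.033).

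The phosphatases did not share a direction, with 2 higher, 1 lower and 3 that did not pass. Over all tested transcripts 11.9% were higher and 9.32% lower. *PHM8* (YER037W), which encodes a cytosolic phosphatase of lysophosphatidic acid and nucleotides, had 123, 133, 159.7, 138 and 154 normalized CPM in the BY *UBR1* -469A>T libraries, against 69.7, 90.9, 92.9, 98.3 and 121 in the BY libraries. The lowest BY *UBR1* -469A>T library lay just above the highest BY library, replicate 5. Means were 142 ± 15.0 normalized CPM for BY *UBR1* -469A>T against 94.5 ± 18.3 for BY (SD, n = 5 each). The log2 fold change of 0.48 (standard error 0.058) was the highest of the 31 genes, and it was 0.58 without surrogate variables. *PHM8* correlated at 0.78 with the main axis of the replicates. On the per-length scale, which is set within each library, the ranges met, at 64.4 to 81.3 TPM in BY *UBR1* -469A>T and 37.9 to 65.5 TPM in BY. TMM factors ran from 0.953 to 0.995 in BY *UBR1* -469A>T and from 1.00 to 1.03 in BY, so that the scaling shifts the strains slightly against each other.

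*PHO5* (YBR093C), the secreted acid phosphatase that serves as the classical readout of the pathway, had 55.6, 60.0, 66.7, 54.7 and 53.6 normalized CPM in the BY *UBR1* -469A>T libraries, against 48.8, 49.9, 62.6, 48.9 and 53.7 in the BY libraries. The strains overlapped, and the log2 fold change of 0.15 (standard error 0.085) did not pass, though it did in 3 of the 21 alternative fits. *PHO3* (YBR092C), an acid phosphatase that is known to respond to thiamine rather than phosphate, had 194, 229, 258, 278 and 331 normalized CPM in the BY *UBR1* -469A>T libraries, against 152, 144, 168, 211 and 255 in the BY libraries. Its log2 fold change was 0.24 (standard error 0.037) with surrogate variables and 0.47 without them. After centring on the strains, the first surrogate variable correlated at 0.99 with the main axis of the replicates. It correlated at 0.40 with strain, and *PHO3* at 0.99 with the axis.

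*PHO11* (YAR071W) had 29.2, 25.4, 28.5, 27.6 and 28.9 normalized CPM in the BY *UBR1* -469A>T libraries, against 33.7, 26.3, 37.0, 31.8 and 34.5 in the BY libraries. Its log2 fold change was -0.26 (standard error 0.084) and passed, while that of *PHO12* was -0.0042 (standard error 0.086) and did not. These 2 secreted acid phosphatases are nearly identical and share 1258 words of 31 bases, so the split of reads between them is uncertain. Of the words of *PHO11*, 92.6% occur more than once in the R64 genome, and of those of *PHO12*, 91.6%. *PHO3* and *PHO5* have fewer such words, 15.4% and 19.8%, and share 209 words with each other. The vacuolar alkaline phosphatase gene *PHO8* was at -0.05 (standard error 0.033) and did not pass.

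The VTC complex makes polyphosphate at the vacuole, with Vtc4 as its catalytic subunit, and Ppn1 cuts the chains. *VTC3* (YPL019C) had 373, 340.4, 364, 389 and 369 normalized CPM in the BY *UBR1* -469A>T libraries, against 442, 386, 417, 411 and 393 in the BY libraries. *VTC4* (YJL012C) had 281, 281, 295, 317 and 323 normalized CPM in the BY *UBR1* -469A>T libraries, against 319.5, 283, 337, 313 and 326 in the BY libraries. Both passed as lower, at -0.16 (standard error 0.045) and -0.13 (standard error 0.047), with overlapping libraries. In TPM the libraries of *VTC3* did not overlap, at 57.1 to 64.4 TPM in BY *UBR1* -469A>T and 69.6 to 78.5 TPM in BY. *VTC1*, *VTC2* and *PPN1* did not pass, at -0.02 (standard error 0.044), -0.05 (standard error 0.047) and -0.04 (standard error 0.036). 

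Kcs1 and Vip1 are the kinases that make inositol pyrophosphates, and Ddp1 breaks them down. *KCS1* (YDR017C) had 99.5, 104, 97.4, 99.8 and 107 normalized CPM in the BY *UBR1* -469A>T libraries, against 104, 102, 103, 105 and 114 in the BY libraries. *VIP1* (YLR410W) had 127, 132, 134, 133 and 143 normalized CPM in the BY *UBR1* -469A>T libraries, against 139.8, 132, 139, 131 and 131 in the BY libraries. Neither passed, with log2 fold changes of -0.08 (standard error 0.035) and -0.03 (standard error 0.034), and *DDP1* at -0.01 (standard error 0.035) did not pass either. *SYG1* (YIL047C), an SPX protein related to the human phosphate exporter XPR1, had 127, 156, 177, 182 and 202 normalized CPM in the BY *UBR1* -469A>T libraries, against 108, 98.9, 111, 135 and 154 in the BY libraries. It passed as higher, at 0.28 (standard error 0.042), and at 0.48 without surrogate variables, and it correlated at 0.99 with the main axis of the replicates. Whether that axis has a part in the difference between the strains in *SYG1* and *PHO3* was not tested.

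None of the 4 remaining genes passed in edgeR or in DESeq2, and 1 had an unadjusted p under 0.05 in edgeR. *GDE1*, a glycerophosphocholine phosphodiesterase gene, was at -0.06 (standard error 0.029), *GIT1* at -0.09 (standard error 0.11), *PHM7* at 0.07 (standard error 0.079) and *PHM6*, whose product has no known function, at -0.20 (standard error 0.14). *PHM6* and *GIT1* were the scarcest in counts, with a least-covered library of 364 and 413 estimated counts, and *PHM6* had the largest standard error after *PHO89*. In TPM, 7 of the 31 genes had libraries that did not overlap, all lower in BY *UBR1* -469A>T, namely *PHO89*, *SPL2*, *PHO2*, *VTC3*, *PHO80*, *GDE1* and *DDP1*. Libraries did not overlap in TPM for 6.21% of all tested transcripts, 356 of them lower and 16 higher in BY *UBR1* -469A>T, and TPM carry no TMM factor.

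Genes of the same pathway outside the 31 were also counted. Of 7 genes of polyphosphate and inositol pyrophosphate turnover, 1 was higher, the polyphosphatase gene *PPN2* at 0.14 (standard error 0.037). The VTC regulator gene *VTC5* at -0.16 (standard error 0.054) and the inositol phosphate kinase genes *IPK1* at -0.16 (standard error 0.039) and *ARG82* at -0.10 (standard error 0.037) were lower. The other 3, *PPX1*, *SIW14* and *PLC1*, did not pass. Neither of the 2 mitochondrial phosphate carriers passed in edgeR, with *MIR1* at 0.0031 and *PIC2* at 0.24, but 1 of them had an unadjusted p under 0.05 and 1 passed in DESeq2. None of the 6 genes *PHO13*, *PHO88* (named *SND3* in R64), *PHO23*, *PHO92*, *PCL6* and *PCL7* passed in edgeR or DESeq2, and 0 had an unadjusted p under 0.05 in edgeR. Their log2 fold changes ran from -0.04 to 0.24. Over all tested transcripts 21.2% passed.

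The spread between replicates also varied widely among the 31 genes. *PHO89* had a within-strain SD of 0.61 on the log2 scale, which is at percentile 98.7 of all tested transcripts, whose median was 0.13. *PHM7* followed with 0.48 at percentile 96.6, then *PHO3* with 0.32 at 88.9 and *PHM6* with 0.29 at 85.8. The steadiest was *GDE1* with 0.031 at percentile 0.317, followed by *PHO91* with 0.047 at 4.03 and *DDP1* with 0.051 at 5.71. The regulators *PHO2*, *PHO4*, *PHO80* and *PHO85* were among the steady genes, with SDs between 0.059 and 0.077. Of the other regulators, *PHO86* had 0.076 at percentile 20.1, *PHO81* 0.095 at 33.5 and *SPL2* 0.23 at 77.7.

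Whether the genes moved together among replicate cultures was asked with each library's deviation from its strain mean, which carries no difference between the strains. *PHO84*, the standard Pho4 target, was the anchor, and its deviation was set against those of the other 30 genes over the 10 libraries, with exact two-sided permutation of libraries within strains. The 14400 permutations allow no p under 6.9e-05. With Benjamini-Hochberg adjustment over the 30 relations, 10 had an adjusted p under 0.1, of which 9 were positive and 1 was negative. In rank correlation 12 relations passed, for which no background over all transcripts was computed. The background of r is as high. Of the 5986 other tested transcripts, 39.4% had an unadjusted exact permutation p under 0.05 with *PHO84*, against 11 of the 30 genes (36.7%). With adjustment over all 5986, 32.7% of them passed, and so did the same 10 of the 30 genes, at adjusted p of 0.061 to 0.088. The median size of r with *PHO84* was 0.48 over the 30 genes and 0.58 over all. The share among the 30 genes lies near the background, so the relations are no result about the pathway, and the values below describe single genes. The test takes the cultures of a strain as exchangeable. Same-numbered libraries of the strains correlated at 0.29 to 0.68 in their deviations for 4 of the 5 numbers, and p-values would be too small if they share a source. With the numbers permuted together in both strains, 0 of the 30 relations passed and 6 had an unadjusted exact permutation p under 0.05. The share over all transcripts was not computed for that permutation.

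The polyphosphate polymerase gene *VTC4* had the highest r with *PHO84* over the 10 libraries, at r = 0.89 (exact permutation p = 0.0059, adjusted p = 0.045) and rho = 0.83 (p = 0.012, adjusted p = 0.039). *PHM6* had r = 0.85 (exact permutation p = 0.010, adjusted p = 0.045) and rho = 0.81 (p = 0.0076, adjusted p = 0.035). *PHO86*, whose product serves Pho84 itself, had r = 0.81 (exact permutation p = 0.0082, adjusted p = 0.045) and rho = 0.87 (p = 0.0065, adjusted p = 0.035). The r of these 3 genes was 0.74, 0.72 and 0.72 without BY replicate 2 and BY *UBR1* -469A>T replicate 1, the libraries farthest from the median of *PHO84*. The other positive relations were those of *PHO3* (r = 0.81), *SYG1* (0.81), *PHO12* (0.79), *PHO90* (0.78), *VTC1* (0.74) and *VTC2* (0.73), with adjusted exact permutation p between 0.045 and 0.074. Without the same 2 libraries, r was 0.77 for *PHO3*, 0.73 for *SYG1*, 0.78 for *PHO90* and 0.56 for *VTC1*, but 0.37 for *PHO12* and 0.39 for *VTC2*, whose relations rest largely on those libraries. *PHO8*, the alkaline phosphatase gene, ran against *PHO84*, at r = -0.72 (adjusted exact permutation p = 0.074) and -0.77 without them.

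The same genes also followed the main axis of the replicates. *PHO84* itself correlated at 0.79 with the axis, *PHO90* at 0.91, *VTC4* at 0.68, *PHM6* at 0.58 and *PHO8* at -0.89, over the same 10 libraries. *PPN1*, at -0.96 with the axis, had r = -0.76 with *PHO84* (adjusted exact permutation p = 0.11), and did not pass by r over the 10 libraries. It passed in rank correlation and without BY replicate 2 or BY replicate 3. The part of the axis in the relations with *PHO84* was not tested, and the extraction batch of each library is not named in the labels. No relation passed after leaving out BY *UBR1* -469A>T replicate 1, BY *UBR1* -469A>T replicate 5 or BY replicate 5, when 9, 10 and 8 were at an unadjusted p under 0.05. The count was 6 without BY replicate 2 or without BY replicate 4. Shares over all transcripts were not computed with a library left out.

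*PHO89* and *SPL2*, the genes lowest in the comparison of the strains, did not pass. *PHO89* had r = -0.33 with *PHO84* (exact permutation p = 0.29, adjusted p = 0.46) and rho = -0.19 (p = 0.61, adjusted p = 0.70). *SPL2* had r = -0.42 (exact permutation p = 0.20, adjusted p = 0.35) and rho = -0.54 (p = 0.14, adjusted p = 0.25). Both lay on the other side of the main axis, at -0.73 and -0.84. The relation between *PHO89* and *SPL2* was looked at after their values were seen. It had r = 0.84 (exact permutation p = 0.011) and rho = 0.70 (exact permutation p = 0.062) over 10 libraries. The r was 0.56 without BY *UBR1* -469A>T replicates 5 and 1, which lie farthest from the median of *PHO89*. No share over other pairs of transcripts was computed, and this pair was not tested with replicate numbers permuted together. In BY *UBR1* -469A>T, replicate 1 was highest and replicate 5 lowest for both genes.

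**Figure D5:**
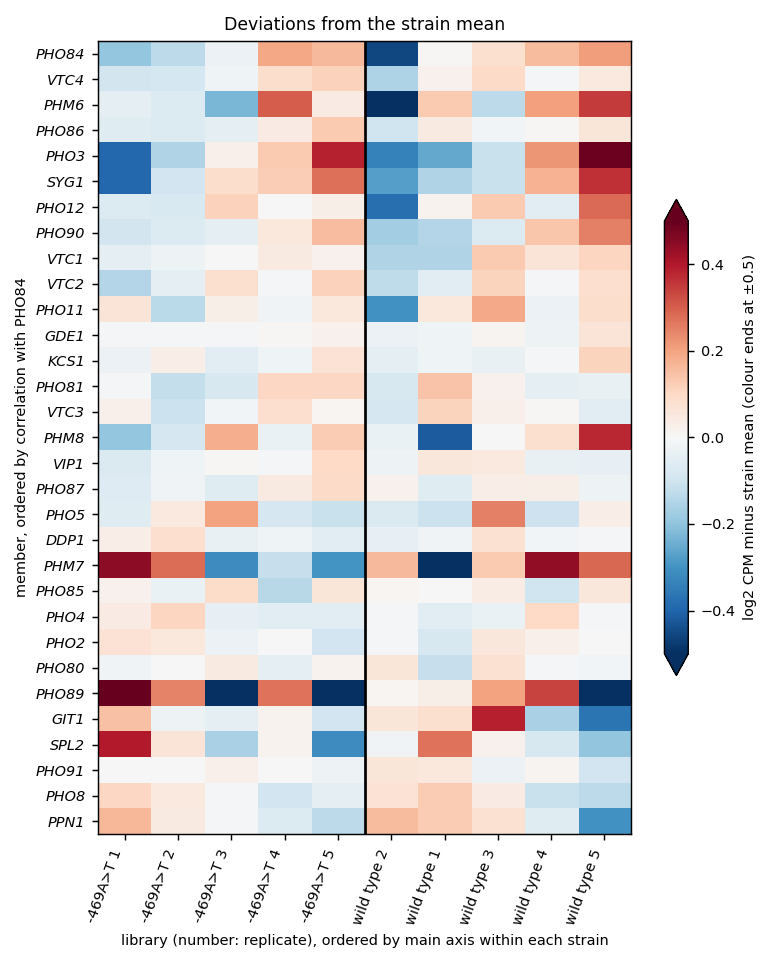
Deviation of each gene from its strain mean in each library (log2 CPM, red above and blue below, colours ending at ±0.5), with BY *UBR1* -469A>T left of the line and BY right of it. Genes run from the highest to the lowest correlation with *PHO84*, and libraries by position on the main axis within each strain; *VTC4* at r = 0.89 is next to *PHO84*, and *PHO89*, *SPL2* and *PHO8* are near the bottom.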

How the data were processed

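For each of the 10 libraries the authors deposited a table of 6612 transcripts with the estimated count and TPM of kallisto, after read trimming with fastp, per the study's methods. The estimated counts, as the authors deposited them, carry no normalization, and they were rounded here to whole numbers. The deposited TPM values are scaled within each library and were used only for levels per length. The deposited length and effective length of each transcript, in bases, are values of the authors' kallisto run and served only for a filter and a check of the annotation. Of the transcripts, 5917 matched a protein-coding gene of R64, 99.8% of these with the same length.

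A transcript was tested if no library had fewer than 10 counts or an effective length below 1, which left 5987. Counts were fitted with the quasi-likelihood method of edgeR 4.0.16 in R 4.3.3, with TMM and 2 surrogate variables from sva 3.50.0 estimated on counts scaled to the mean library size, at a Benjamini-Hochberg adjusted p under 0.1 over all tested transcripts. Standard errors were obtained by dividing each log2 fold change by the root of its F statistic. The procedure was tested on simulated counts. The study's model used DESeq2 with extraction batch and optical density, which were not used here. Within strains, log2 CPM with a prior count of 0.5 was centred on the strain mean. Every pair of replicates differed by far more than counting error, with a chi-square of 67.5 to 544 per degree of freedom, and all 10 libraries were counted as separate samples.

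The 31 genes, the other gene lists and the genes whose library values are printed (those past the threshold, with *PHO84*, *PHO5*, *SPL2*, *PHO4*, *PHO81*, *PHO80*, *PHO85*, *VTC4*, *KCS1* and *VIP1*) were chosen with earlier results of these data known. Alternatives covered DESeq2 1.42.0, 0, 1 or 3 surrogate variables, a replicate block, the count minimum, the scaling, the threshold of 0.05, the prior count, Spearman's rho and each library left out. Surrogate variables from unscaled counts, the joint permutation of replicate numbers and the adjustment of relations over all tested transcripts were added after seeing the data.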

Additional observations from a re-analysis of the deposited data

Results flagged for a closer look

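Among the 62 groups of 5 libraries formed by the 31 genes and both strains, 2 held a library set apart from the other 4 by most of the group's range, where chance flags about 1 in 20 groups. For *PHO4* this was BY replicate 4, with 54.6 normalized CPM where its 4 fellow libraries had 49.1 to 50.7. For *KCS1* it was BY replicate 5, with 113.5 normalized CPM where the other BY libraries had 102 to 105.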

How the results depend on the processing

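The 31 genes were refitted under 21 alternatives. Of 651 log2 fold changes, 643 moved by less than the gene's within-strain SD, 8 moved by more, and no called value changed its sign. The 8 belong to the replicate block with 2 surrogate variables. That SD is a wide limit. For *PHO3* it was 0.32, with a standard error of 0.037, and values from 0.14 to 0.49 counted as unmoved. For *SYG1* it was 0.26, with a standard error of 0.042, and values ran from 0.11 to 0.48. The count of 13 genes past the threshold was 8 at an adjusted p under 0.05, where the share of all transcripts was not counted. Without surrogate variables or replicate block it was 0 (9 at an unadjusted p under 0.05 in edgeR). There 0 of all tested transcripts passed, with 1400 unadjusted. It was 3 with 1 surrogate variable (0.718% of all tested transcripts). It was 4 with surrogate variables from unscaled counts (1.97% of all), which was added after seeing the data. It was 14 with 3 surrogate variables (30.7% of all) and 13 with DESeq2 (23.9% of all). With any count in any library it was 10 (14.2% of all), and with at least 100 in every library 13 (30.5% of all). Upper-quartile scaling gave 13 (20.6% of all) and DESeq2 size factors 12 (21.1% of all). With 1 library left out it ran from 5 to 12, where 4.11% to 21.5% of all passed. It was 5 without BY replicate 5, 6 without BY *UBR1* -469A>T replicate 2 and 8 without BY *UBR1* -469A>T replicate 3. The cause of these changes was not tested. *PHO89* stayed between -2.19 and -1.60 and *SPL2* between -0.69 and -0.44, and both passed in 20 of the 21. The exception was the fit with neither surrogate variables nor replicate block, where 0 of all tested transcripts passed. *SYG1* passed in 19, *PHM8* in 18 and *PHO3* in 17.

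With the replicate number as a replicate block, 12 genes passed without surrogate variables, where 39.6% of all tested transcripts did, and 2 with 2 surrogate variables, where 0.718% did. Libraries with the same number correlated at 0.29, 0.53, -0.01, 0.48 and 0.68 in their deviations. Of the 5, 1 was not above 0.1 and 3 matched best with their own number, so whether the numbers pair the cultures stays undecided. The main setting left the libraries unpaired and took those of a strain as exchangeable. Its p-values for the relations would be too small if same-numbered libraries share a source. Position on the main axis also rose with the number in both strains. It went from -18.2 at replicate 1 to 15.3 at replicate 5 in BY *UBR1* -469A>T, and from -8.62 to 19.7 in BY. Only BY replicate 2, at -12.2, broke that order. The 10 relations with *PHO84* were 9 with upper-quartile scaling, 12 in rank correlation, and between 0 and 10 with 1 library left out. With the numbers as a replicate block, permuted together in both strains, which was added after seeing the data, the count was 0, with 6 at an unadjusted exact permutation p under 0.05. The 120 such permutations allow no p under 0.0083. For the relations with *PHO84*, the share over all transcripts was computed only for r in the main setting. The lowest count of any of the genes in any library was 364.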
